A study of Danio rerio with 6 samples.

Results

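Transcripts of the proteasome, of the ubiquitin and SUMO enzymes and of their proteases were followed in RNA that was recovered with Tdrd6a from zebrafish zygotes. Tdrd6a carries Tudor domains and sits in germ plasm, which the egg provides and which marks the future germ cells. The members were taken by gene symbol, as names that begin with ube2, or with psma to psmg, uba, usp, sumo, senp or cul and a digit. This gave 142 of the 21051 genes in the table, of which 136 reached a mean of at least 10 normalized counts over all libraries and were tested. The rule uses names and this minimum only, and not the difference between the immunoprecipitate (IP) and the input. There were 46 tested proteasome genes, 37 genes of E1 and E2 enzymes, 8 cullins, 33 deubiquitinases of the USP family and 9 SUMO genes. A further 3 genes matched by their letters alone. Of these, psmc3ip encodes a meiotic recombination factor and usp6nl a regulator of Rab proteins.

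There were 3 Tdrd6a IP libraries and 3 input libraries, all labelled as zygotes, with 50 bp single-end reads. The series' design note speaks of ovary tissue instead; the sample labels were followed, and which of them holds was not tested. The labels give no strain, genotype, clutch or antibody for either group, and no library of a mock precipitate was analysed here. Whether the 3 replicates of a group were separate clutches is not stated, and p-values reflect only how far these libraries vary, possibly for technical reasons. The values are normalized counts, that is, reads per gene divided by a factor per library. The IP libraries held 4031863 to 22466764 recovered reads and the input libraries 10481206 to 19804774. IP replicate 2 was the shallowest, with 1 read worth 3.76 normalized counts. Of 14 names on a list of localized germ plasm transcripts 11 were matched. All 11 were called higher in IP by limma, with a median log2 difference of 5.48, against 4.46% of all genes. The list was chosen with earlier results of these data known, so it is no independent check of the precipitate. Of 16 names of egg and maternal markers 13 were matched and 12 tested; cldne was listed at 0, and the summed level was 33747 to 44877 normalized counts in IP and 47685 to 48937 in input, with 0 of 12 called by limma or edgeR, 1 called lower by DESeq2 and 2 with an unadjusted p under 0.05. Of 17 matched markers of later embryos 3 were tested, with gata5 and sox17 at 0 in all libraries. Sums over the matched markers were 244 to 621 in IP and 225 to 431 in input. Most of each sum came from her7, with 162, 526 and 263 in IP and 189, 373 and 195 in input. The marker her1 had 32.7, 75.2 and 31.4 in IP and 10.1, 24.3 and 30 in input. Its groups did not overlap, but limma did not call it (adjusted p = 0.406). Of 14 matched markers of follicle and other somatic cells 3 were tested, with cyp19a1a, inha, lhcgr and elavl3 at 0. Most of that sum, 3354 to 5370 in IP and 2282 to 3937 in input, came from cyp11a1. This gene had 5139, 3211 and 4527 in IP and 2170, 3045 and 3038 in input. Its groups did not overlap, but limma did not call it (0.63, adjusted p = 0.233). The follicle marker cyp17a1 had 114, 75.2 and 806 in IP and 72.9, 134.5 and 858 in input, highest in replicate 3 of both groups. The reason for this was not tested.

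Ubiquitin is attached to proteins through a chain of enzymes. An E1 enzyme activates it, an E2 enzyme carries it and a ligase, often built on a cullin scaffold, passes it to the substrate. Deubiquitinases such as the USP proteases remove it again, and the proteasome degrades proteins that carry suitable chains. SUMO is a related modifier with its own E1, E2 and proteases, the Senp enzymes. In eggs and early embryos, proteins stored by the mother are removed through this system, for which the transcripts are also supplied by the mother.

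Of the 136 tested members, 4 were higher and 4 were lower in IP at an adjusted p under 0.05, and 128 were not called. Calls and adjusted p-values are from limma on log2(normalized count + 4), adjusted over all 13265 genes tested. This fit had group as its only term and left out the pairing by replicate number. The called members were 5.88% of those tested, and 6.32% of all genes tested were called. The higher ones made 2.94% against 4.46% of all genes, and the lower ones 2.94% against 1.86%. The members' share of calls was thus near that of all genes. The higher members were ube2a (ENSDARG00000053444), ube2q2 (ENSDARG00000013990), psme4b (ENSDARG00000018742) and usp19 (ENSDARG00000004132). The lower ones included sumo3a (ENSDARG00000028119), sumo3b (ENSDARG00000035993) and ube2g1a (ENSDARG00000015292). The median log2 difference of all members was -0.13, that of all genes -0.0081. Estimates of 122 members, 89.7%, lay within 1 log2 unit of 0, against 79.9% of all genes. An unadjusted p under 0.05 was seen in 25 members (18.4%), against 21.2% of all genes, and the groups did not overlap in 35 (25.7%), against 27.6%. With replicate number as a block, 7 members were higher and 4 lower, where 6.97% and 3.52% of all genes were called in these directions (10.5% in either). On recovered reads edgeR called the same 8 members, against 6.34% of all genes (4.43% higher, 1.91% lower). DESeq2 called 8 members higher and 6 lower, against 8.87% and 4.78% of all genes (13.6% in either). Here and below, DESeq2 shares of all genes are over the 11957 genes to which it gave an adjusted p. Its counts of members and listed genes are over all those tested. Leaving out input replicate 1, 2 or 3 left ube2a as the only member called, while 1.45% to 2.06% of all genes were. Without IP replicate 2, 14 members and 13.1% of all genes were called.

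**Figure D1:**
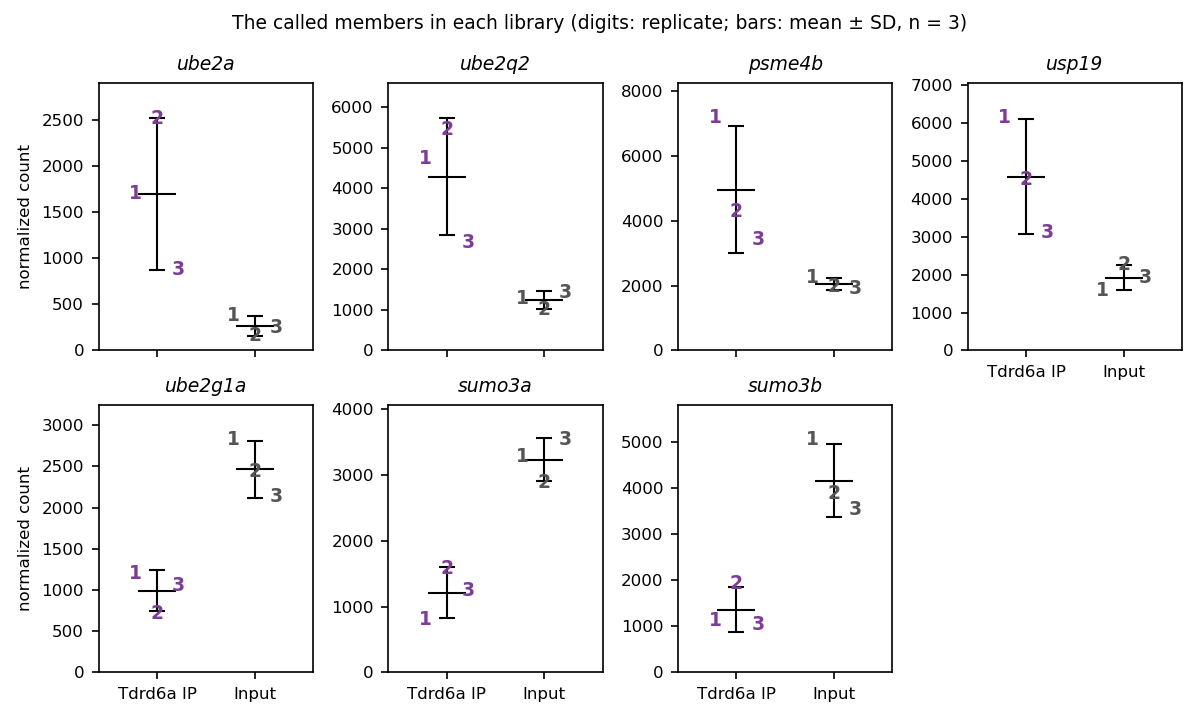
Normalized counts of 7 of the 8 called members in each library, with Tdrd6a IP at the left and input at the right of each panel. Digits mark the replicate and bars the mean ± SD of 3 libraries; every panel starts at 0. In each panel the IP and input values do not overlap, with ube2a at 874 to 2519 in IP and 162 to 378 in input.

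No E1 gene at the head of the ubiquitin chain was called. The gene of the main ubiquitin E1, uba1, had 3628, 5158 and 3478 normalized counts in IP replicates 1 to 3, against 3777, 4204 and 3979 in input. Its log2 difference was 0.014 ± 0.26 (SE, adjusted p = 0.986), and the groups overlapped. The gene of the NEDD8 E1 subunit, uba3, was at -0.44 and that of the SUMO E1 subunit, uba2, at -0.25. Of 4 E1 genes tested limma, edgeR and DESeq2 called 0, and 0 had an unadjusted p under 0.05. Over all genes limma called 6.32%, edgeR 6.34% and DESeq2 13.6%, and 21.2% had an unadjusted p under 0.05. With 4 genes, 0 calls are not read as a trait of E1 genes. Genes encoding ubiquitin itself were tested in 4 rows of the table, among them rps27a (-0.77) and 2 rows named ubb. By limma and edgeR 0 of the 4 were called, and 1 had an unadjusted p under 0.05 by limma. DESeq2 called 1 lower, a row named ubb, where it called 4.78% of all genes lower. The lowest estimate, -1.81, belonged to a ubb row with 14.6, 26.3 and 24.1 normalized counts in IP and 96.4, 73.5 and 84.5 in input (adjusted p = 0.0546). With the replicate block it was called lower (adjusted p = 0.039).

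Among the 33 E2 genes, ube2a and ube2q2 rose, ube2g1a fell and 30 were not called by limma. Higher calls made 6.06% of the E2 genes and lower calls 3.03%, against 4.46% and 1.86% of all genes. In either direction it was 9.09% against 6.32%, and these few calls are not read as a trait of E2 genes. The E2 median was -0.43, with 23 estimates below 0 and 10 above. The largest difference of all members was that of ube2a, a homolog of yeast Rad6, an E2 that marks histone H2B and the sliding clamp PCNA. It had 1703, 2519 and 874 normalized counts in IP, against 378, 162 and 252 in input. The IP values were spread widely, yet the lowest of them exceeded the highest input value. The log2 difference was 2.62 ± 0.43 (SE, adjusted p = 0.0074), a 6.15-fold increase. It was called under every alternative run, with estimates from 2.27 to 3.04 as single libraries were left out. Some of these calls were near the threshold. The adjusted p was 0.0444 without IP replicate 1, 0.0387 without input replicate 2 and 0.0476 without input replicate 3. The transcript of ube2q2, an E2 with a long N-terminal extension, had 4735, 5455 and 2666 normalized counts in IP and 1274, 1011 and 1440 in input. It rose 3.33-fold (log2 difference 1.73 ± 0.32, adjusted p = 0.0108). The call was lost when input replicate 1, 2 or 3 was left out (adjusted p = 0.0537 to 0.0731).

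The E2 gene ube2g1a, whose mammalian homolog builds chains on substrates of cullin ligases, was lower. It had 1197, 714 and 1059 normalized counts in IP and 2821, 2436 and 2129 in input, a log2 difference of -1.33 ± 0.28 (adjusted p = 0.0197). Its IP values lay below all input values. With each input library left out in turn the adjusted p was 0.079 to 0.112. With the called genes included, 2 of the 33 E2 genes had every IP value above every input value and 9 had every IP value below, while 14.6% and 12.9% of all genes were separated in these directions. The gene of the anaphase E2, ube2c, was at -0.35 with overlapping groups. The widest spread among E2 genes was seen in ube2w, with 189, 297 and 29.0 normalized counts in IP and 115, 48.5 and 17.7 in input (1.27 ± 0.89, adjusted p = 0.466).

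**Figure D2:**
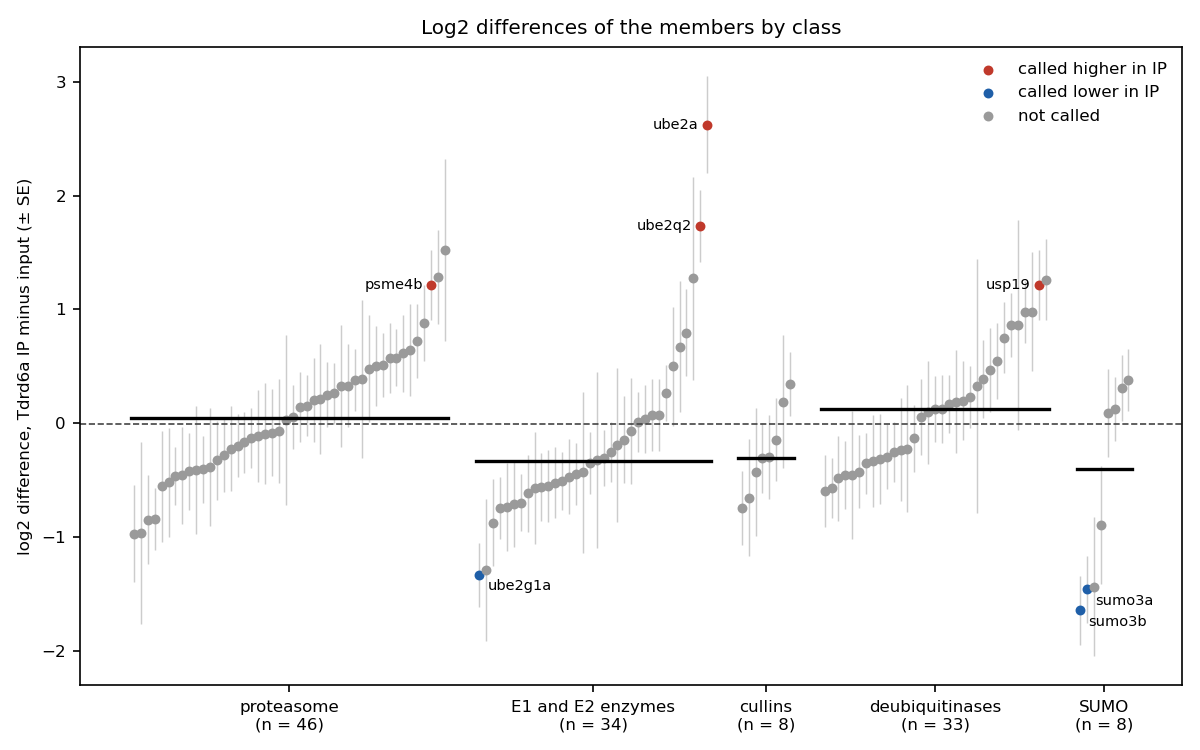
Log2 difference, Tdrd6a IP minus input, of the members shown, by class, sorted within the class, with its standard error. Black lines are medians of the members shown, the dashed line is the median of all genes tested (-0.0081), red points were called higher and blue points lower. The medians are 0.043 for 46 proteasome genes, -0.33 for 34 genes of E1 and E2 enzymes, -0.30 for 8 cullins, 0.12 for 33 deubiquitinases and -0.40 for 8 SUMO genes; over all 9 SUMO genes tested the median is -0.89.

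Of the 8 cullin genes, which encode the scaffolds of the cullin ligases, limma called 0 and 1 had an unadjusted p under 0.05, while edgeR and DESeq2 on recovered reads called 0. The median log2 difference was -0.30. It rested on IP replicate 2: cullin medians over the input mean were 0.10, -1.07 and 0.12 in IP replicates 1, 2 and 3, and without IP replicate 2 the median was 0.20. The transcript of cul2, the scaffold of the ligase with Vhl, had 1152, 252 and 1318 normalized counts in IP and 999, 951 and 986 in input. That of cul4b, which binds Ddb1, had 2193, 541 and 2396 in IP and 1947, 2441 and 2341 in input. In both, IP replicate 2 lay far below all input values, while IP replicates 1 and 3 lay above them for cul2 and within their range for cul4b. IP replicate 2 was at least 2-fold below the mean of IP replicates 1 and 3 in 5 of the 8 cullins, against 16.7% of all genes; the opposite, at least 2-fold above, was seen in 0 of them and in 11.1% of all genes. The lowest cullin estimate was that of cul1b, with 933, 432 and 934 in IP and 1158, 1196 and 1294 in input (-0.75 ± 0.33, adjusted p = 0.221). The highest was that of its duplicate cul1a, with 2394, 1301 and 1617 in IP and 1351, 1408 and 1285 in input (0.35 ± 0.28, adjusted p = 0.537). Shallow depth and a low level of cullin transcripts occurred in the same library, and their relation was not tested.

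Most proteasome transcripts lay within 1 log2 unit of input, as did most genes tested. Of 46 tested genes psme4b was higher, 0 were lower and 45 were not called by limma or edgeR. Limma thus called 2.17%, against 6.32% of all genes. DESeq2 called 2 higher (psme4b and psmg1) and 1 lower (psme3), against 8.87% and 4.78% of all genes. By limma 7 had an unadjusted p under 0.05 (15.2%, against 21.2% of all genes). The median log2 difference was 0.043, with 24 estimates above 0 and 22 below. Estimates of 43 genes (93.5%) lay within 1 unit of 0, against 79.9% of all genes. The gene psme4b encodes an activator cap of the core particle, whose mouse homolog is needed for normal sperm formation. It had 7162, 4282 and 3418 normalized counts in IP and 2247, 1961 and 1900 in input, and IP replicate 1 stood highest. The transcript rose 2.32-fold (1.21 ± 0.31, adjusted p = 0.0416). The call was lost without IP replicate 1 (0.91, adjusted p = 0.102), without each of the input libraries in turn (adjusted p = 0.134 to 0.175) and with scaling by library size only (adjusted p = 0.054). The estimates of the other cap genes lay below 0, with psme4a at -0.38. The nuclear activator gene psme3 had 1003, 827 and 717 in IP and 1697, 1711 and 1181 in input (-0.84 ± 0.27, adjusted p = 0.0969), and psme1 was at -0.97 ± 0.80.

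Within the core particle, the alpha subunits ran from psma2 (-0.55) to psma6a (0.72) with a median of -0.020. The beta subunits other than psmb11 ran from psmb2 (-0.28) to psmb3 (0.88). Of the beta subunits with proteolytic activity, psmb5, psmb6 and psmb7 were at 0.51, 0.21 and 0.057. The gene psmb3 had 237, 293 and 383 normalized counts in IP and 185, 135 and 166 in input, separated but not called (0.88 ± 0.34, adjusted p = 0.156). The gene psmb11, a subunit known from the thymus of mammals, passed the abundance minimum only through its IP values, with 14.6, 30.1 and 8.40 in IP and 2.20, 7.40 and 0.70 in input. Its estimate of 1.52 (adjusted p = 0.312) ran from 0.76 to 2.55 over the other settings that keep all libraries. The ATPases of the regulatory particle ran from psmc4 (-0.46) to psmc1a (0.61), and its other subunits from psmd13 (-0.97) to psmd4b (0.64), with medians of -0.11 and -0.094. Of the alpha, beta, ATPase and other regulatory subunits 0 were called by limma, edgeR or DESeq2. An unadjusted p under 0.05 was seen in 1, 1, 0 and 2 of these genes. Over all genes limma called 6.32%, edgeR 6.34% and DESeq2 13.6%, and 21.2% had an unadjusted p under 0.05. The lid deubiquitinase gene psmd14 was at 0.26 ± 0.27. The inhibitor gene psmf1 was at 0.50 ± 0.35. Among the assembly chaperones psmg1 was highest, with 500, 372 and 233 in IP and 216, 137 and 96.1 in input (1.29 ± 0.41, adjusted p = 0.0916), and psmg3 lowest (-0.41). With replicate number as a block psmg1 was called (adjusted p = 0.0238), as it was in a blocked edgeR fit (adjusted p = 0.0279).

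Members of the immunoproteasome, a form with exchanged subunits that immune signals induce, were at the limit of detection. Over all 6 libraries psmb9a had 18 reads, psmb8 19 and psmb10 2, and the activator subunit psme2 had 1. Of the psmb8 reads, 18 stood in input replicate 2. The alpha subunit gene psma6l had 7 reads, and usp28 was at 0 in every library. A count of 0 allows up to 3 reads, or 2.08 to 11.3 normalized counts in an IP library and 2.05 to 3.36 in an input library, for counting error only. These 6 genes were the members below the abundance minimum. The lowest members above it were usp53b with a mean of 10.4, psmb11 with 10.6 and psma6b with 13.4, and the highest below it was psmb9a with 6.30.

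**Figure D3:**
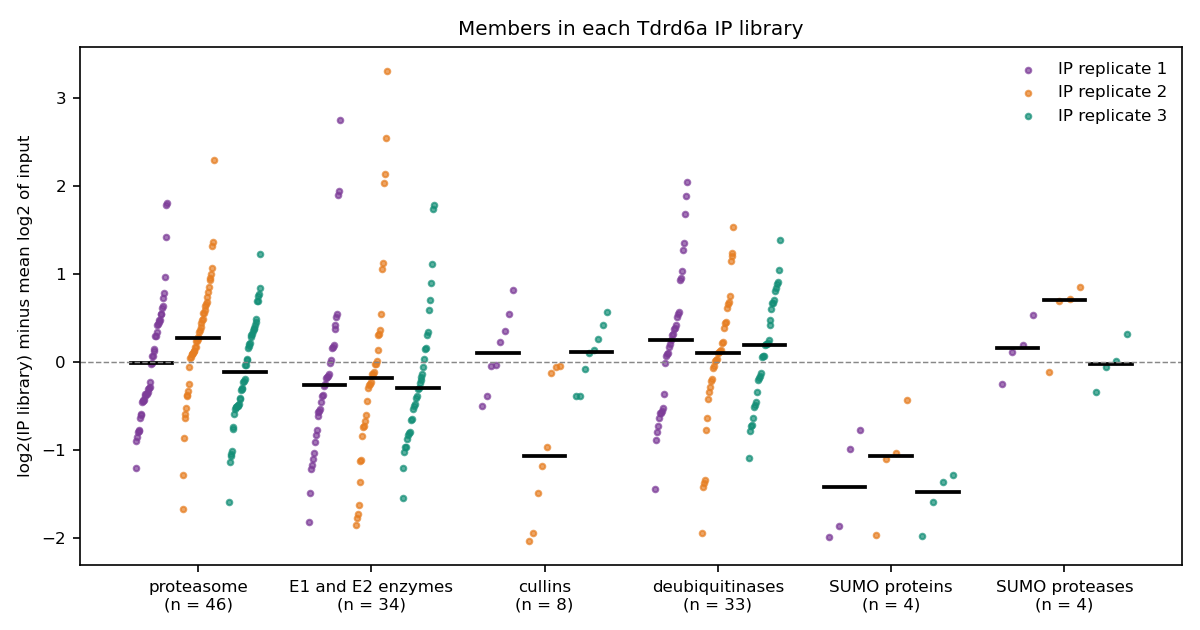
The members in each Tdrd6a IP library, as log2(normalized count + 4) minus the mean of the 3 input libraries on the same scale. Black bars are medians. Cullins sit at a median of -1.07 in IP replicate 2, and the 4 SUMO protein genes shown are below 0 in every IP library, while the medians of the SUMO protease genes are 0.16, 0.71 and -0.023 in IP replicates 1, 2 and 3.

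Of 33 deubiquitinase genes usp19 was higher, 0 were lower and 32 were not called by limma or edgeR. Limma thus called 3.03%, against 6.32% of all genes. DESeq2 called 4 higher and 0 lower, against 8.87% and 4.78% of all genes. By limma 5 had an unadjusted p under 0.05 (15.2%, against 21.2% of all genes). The median log2 difference was 0.12. With library size only it was -0.065, a scaling under which the median of all genes was -0.18. The product of usp19 is anchored in the endoplasmic reticulum in mammals. It had 6130, 4497 and 3102 normalized counts in IP and 1582, 2260 and 1919 in input, and rose 2.32-fold (1.21 ± 0.31, adjusted p = 0.0409). As with psme4b, IP replicate 1 stood highest. The call of usp19 was lost without IP replicate 1 (0.97, adjusted p = 0.118), without each of the input libraries in turn (adjusted p = 0.108 to 0.184) and with library size only (adjusted p = 0.0501). The estimate of usp7, whose human homolog stabilises the p53 ligase Mdm2, was as large. It had 10563, 4125 and 5293 in IP and 2775, 2856 and 2106 in input, separated but not called (1.26 ± 0.35, adjusted p = 0.0598). The transcript of usp34, whose human homolog acts on Axin, had 1609, 1820 and 1252 in IP and 618, 897 and 865 in input (0.98 ± 0.28, adjusted p = 0.0612). With the replicate block both were called, usp7 with an adjusted p of 0.0325 and usp34 with 0.0474; a blocked edgeR fit called neither. Without IP replicate 2, where limma called 13.1% of all genes, usp7 was called, at 1.55 (adjusted p = 0.00477). As single libraries were left out the estimate of usp7 ran from 0.87 to 1.55. Its adjusted p was up to 0.235 over all fits run. The transcript of usp25 was separated too (0.86 ± 0.28, adjusted p = 0.0984) and was called without IP replicate 2 (adjusted p = 0.0282). Its estimate ran from 0.61 to 0.99 as single libraries were left out, with adjusted p up to 0.262 over all fits run. DESeq2 called usp7 (adjusted p = 0.00507), usp34 (0.0208) and usp25 (0.0409) higher.

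On the other side, the lowest deubiquitinase estimate was that of the proteasome-bound usp14, with 803, 1346 and 621 in IP and 1293, 1551 and 1154 in input (-0.59 ± 0.32, adjusted p = 0.322). Without IP replicate 2, where limma called 13.1% of all genes, it was called (-0.90, adjusted p = 0.0339). Its estimate ran from -0.90 to -0.35 as single libraries were left out, with adjusted p up to 0.624 over all fits run. IP replicate 2 was at least 2-fold below the mean of the other 2 IP libraries in 7 of the 33 deubiquitinase genes (21.2%), near the 16.7% of all genes. Of these, usp42 had 2290, 556 and 2990 in IP and 2559, 1970 and 1963 in input, and usp1, a deubiquitinase of PCNA, had 3421, 1173 and 3501 in IP and 3063, 2671 and 3424 in input. Both were chosen after their values were seen. The gene usp39 encodes a splicing factor without known protease activity, and it was at -0.29. The symbol usp5 stands on 2 rows, with estimates of -0.13 (ENSDARG00000014517) and 0.094 (ENSDARG00000079198).

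Of the genes of the modifiers themselves, sumo3a and sumo3b fell, and sumo2a and sumo2b were not called, while 1.86% of all genes tested were called lower. The estimates of these 4 genes lay between -1.64 and -0.89. The 4 protease genes lay between 0.091 and 0.38. Of the proteases limma, edgeR and DESeq2 called 0, and 0 had an unadjusted p under 0.05. Over all genes limma called 6.32%, edgeR 6.34% and DESeq2 13.6%, and 21.2% had an unadjusted p under 0.05. The transcript of sumo3b had 1127, 1918 and 1039 normalized counts in IP and 5037, 3886 and 3523 in input. All its IP values lay well below the lowest input value. Its log2 difference was -1.64 ± 0.30 (adjusted p = 0.0112), which is 3.13-fold lower in IP. The transcript of sumo3a had 810, 1579 and 1249 in IP and 3277, 2891 and 3534 in input, a difference of -1.46 ± 0.29 (adjusted p = 0.0171). The low counts of sumo2a gave 22.2, 7.50 and 10.9 in IP and 48.2, 49.3 and 28.0 in input, separated but not called (-1.44 ± 0.61, adjusted p = 0.205). For sumo2b the groups overlapped (-0.89 ± 0.52, adjusted p = 0.368).

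The calls of sumo3a and sumo3b were lost without input replicate 1, 2 or 3, with adjusted p from 0.0565 to 0.0934. Directions stayed the same in each of these fits. As a share of reads, the 4 protease genes took 0.0169%, 0.0201% and 0.0192% in IP replicates 1 to 3 and 0.0174%, 0.0214% and 0.0152% in input. Of the proteases, senp6a had 642, 963 and 740 normalized counts in IP and 536, 662 and 580 in input (0.38 ± 0.27, adjusted p = 0.468). The other estimates were 0.31 for senp3a, 0.12 for senp7 and 0.091 for senp5. With library size only those of senp5 and senp7 were -0.096 and -0.064, where the median of all genes was -0.18. Whether the difference between modifiers and proteases exceeds the spread was not tested, since the genes were grouped with results known.

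Many members exist as duplicates, and the ratio of the normalized counts of 2 duplicates, each with 4 added, within a library does not depend on the scaling apart from that addition. Only the change of a ratio between groups is read here, since transcript lengths differ. Of 15 pairs named with a and b, 9 had estimates of the same sign and 6 of opposite sign, and in 4 the ratios of IP and input libraries did not overlap. Of all genes tested, taken singly, 27.6% did not overlap, and the share for ratios of other gene pairs was not computed. An exact permutation test of 3 libraries against 3 cannot give p below 0.1, so the ratios are described without a test. A further 3 pairs were chosen after their values were seen. The ratio of ube2a to ube2b, the pair of Rad6 homologs, was 88.4, 83.3 and 47.4 in IP and 12.4, 1.53 and 5.45 in input, which is 15.0-fold higher in IP. On the log2 scale this is a difference of 3.91, or 3.10 without input replicate 2 and 4.61 without input replicate 1. The ube2b side rested on few reads, 22, 7 and 12 in IP and 24, 142 and 63 in input (-1.29 ± 0.62, adjusted p = 0.269). The ratio of psme4a to psme4b was 0.330-fold of its input value in IP, with estimates of -0.38 and 1.21. It was 0.00687, 0.0176 and 0.00926 in IP and 0.0217, 0.0436 and 0.0329 in input, so the psme4a side had few counts. The ratio of cul1a to cul1b was 2.13-fold. That of psmc1a to psmc1b differed by 1.07 on the log2 scale, or 1.49 without input replicate 3. As single libraries were left out this difference ran from 0.82 to 1.49. The psmc1a to psmc1b ratio was 2.77, 3.84 and 2.77 in IP and 1.17, 1.04 and 2.61 in input, so the groups were only just separated. The ratio of ube2g1a to ube2g1b was 0.644-fold, with both genes below 0 (-1.33 and -0.70). It was 1.02, 0.685 and 1.07 in IP and 1.54, 1.68 and 1.08 in input, so the groups were only just separated. In contrast, sumo3a and sumo3b both fell, with a ratio whose IP and input libraries overlapped (-1.46 and -1.64). Whether reads were shared between duplicates was not tested.

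**Figure D4:**
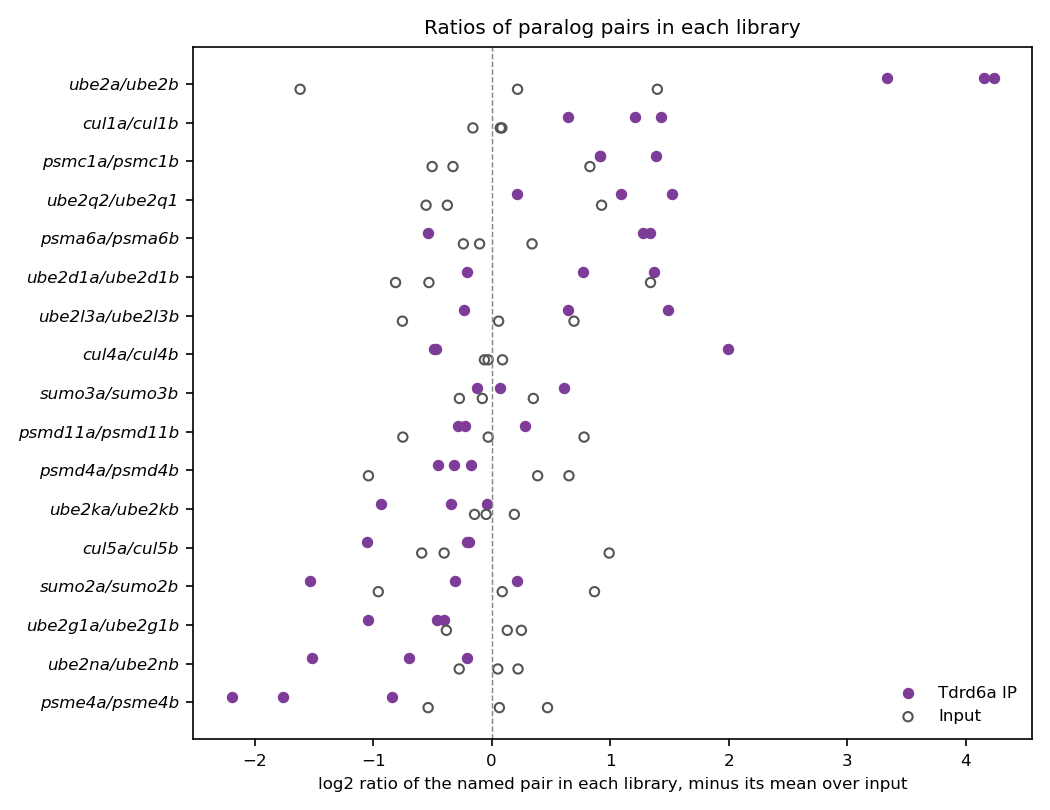
Log2 ratio of each pair of duplicates in each library, minus the mean ratio over input, for 17 pairs. Filled points are Tdrd6a IP libraries and open circles input libraries; the ratio is of the first named gene over the second. The ube2a/ube2b ratios in IP lie above all input ratios, and those of psme4a/psme4b lie below.

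Other genes of the pathway were read from 10 lists of ligases, adaptors, deubiquitinases outside the USP family and related modifiers. By limma, of 150 genes tested outside the members, 15 were higher (10%), 2 were lower (1.33%) and the median log2 difference was -0.073, against 4.46%, 1.86% and -0.0081 for all genes tested. With the replicate block 18 were higher and 6 lower, where 6.97% and 3.52% of all genes were called. DESeq2 called 21 higher and 7 lower, where 8.87% and 4.78% of all genes were called. Of 24 adaptors and partners of cullin ligases 5 rows were higher and 1 lower. The F-box genes fbxw7 (2.93 ± 0.40, adjusted p = 0.00278) and fbxw11a (1.90 ± 0.29, adjusted p = 0.00413) rose, as did tceb2, the gene of Elongin B (2.08 ± 0.37), and both rows named ddb1 (2.23 and 1.39). The adaptor gene skp1, by contrast, fell, with 621, 985 and 574 normalized counts in IP and 1310, 2328 and 1622 in input (-1.27 ± 0.31, adjusted p = 0.0382). The transcript of fbxw7 had 7541, 8399 and 2830 in IP and 705, 894 and 640 in input, and the lowest IP value lay well above the highest input value. The difference between these partners and the cullin scaffolds was not tested.

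For the lists that follow, limma called 4.46% of all genes higher and 1.86% lower. Among 8 N-recognins and E4 factors ubr2 (3.29-fold), ubr3 (4.01-fold) and ubr4 (4.28-fold, adjusted p = 0.00233) were higher and 5 were not called by limma. DESeq2 called 4 of the 8 higher, where it called 8.87% of all genes higher. The transcript of ubr4 had 30127, 22984 and 19479 normalized counts in IP and 5053, 5949 and 5713 in input. Of 20 HECT and RBR ligase genes 5 were higher and 15 were not called. Among the higher ones, with their log2 differences, were herc2 (1.43), hace1 (1.28) and huwe1 (1.09). With the replicate block huwe1 lost its call (adjusted p = 0.0515). Of 17 genes of the anaphase promoting complex cdc20, its activator, was higher (1.33 ± 0.32, adjusted p = 0.0363) and 16 were not called by limma. Lower calls on this list numbered 1 with edgeR (anapc16), 2 with DESeq2 (anapc16 and fbxo5) and 2 with the replicate block (anapc11 and anapc16), and cdc20 was not called by edgeR with a block (adjusted p = 0.0533). Of 4 NEDD8 genes dcun1d1, a co-ligase for cullins, was lower, with 367, 117 and 232 in IP and 1178, 860 and 687 in input (-2.02 ± 0.41, adjusted p = 0.0179). Of 23 segregase and shuttle genes zfand5b was higher (2.86 ± 0.58, adjusted p = 0.024), with 29633, 78380 and 12111 in IP and 4740, 3678 and 4192 in input, and its IP values differed widely among themselves. On this list DESeq2 and the replicate block each called 2 higher and 1 lower. On the lists of 7 COP9 signalosome genes, 23 other deubiquitinases, 8 SUMO partners and 17 genes of other modifiers limma and edgeR called 0. By limma 1, 4, 1 and 5 of these genes had an unadjusted p under 0.05, against 21.2% of all genes. DESeq2 called 0 of the COP9 genes, 2 other deubiquitinases, 1 SUMO partner and 2 genes of other modifiers, against 13.6% of all genes. With 1 input library left out the 10 lists held 4 or 5 higher genes and 0 lower ones. Without IP replicate 1 calls were lost for skp1 (adjusted p = 0.124), zfand5b (0.102), ubr3 (0.0828), hace1 (0.125), cdc20 (0.0587) and the ddb1 row ENSDARG00000089106 (0.158), and without IP replicate 3 for skp1 (0.0871) and hace1 (0.0762).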

How the data were processed

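RNA from 3 Tdrd6a IP and 3 input libraries of zebrafish zygotes was analysed; per the labels, RNA came from Trizol extracts and libraries from a NuGEN Ovation kit. The deposited values are a signal: read counts per gene that the authors normalized with 1 factor per library, given with 1 decimal. Per the submitters' processing notes, TopHat, DESeq and the Zv9 assembly were used. Counting tool, annotation and strand use: not given in the sources used here. Whether overlapping sense and antisense genes were counted apart is thus not known. Dividing by the value of 1 read gave whole reads (within 0.06 normalized counts) for at least 99.97% of values above 0 in each library.

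Limma 3.58.1 (trend, robust, two-sided, R 4.3.3) was fitted on log2(value + 4) with group as the only term, for 13265 genes with a mean of at least 10. Fold changes on that scale understate the change of low genes. P-values were adjusted by Benjamini-Hochberg, and genes were called under 0.05. Alternatives were the replicate block, edgeR 4.0.16 (841 genes called) and DESeq2 1.42.0 on recovered reads, edgeR with the block, TMM and library-size scaling, pseudocounts of 1 and 16, other abundance minimums and leaving out each library. Fits were tested on simulated reads with the same dispersion in both groups and no pairing. That setting differs from these libraries, so it does not show the error rates of the fits here.

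Members and lists were chosen with earlier results of these data known. Symbols were matched ignoring case. The members named are those called, the 4 of smallest p and the extremes of each class, the extremes of each proteasome subunit family and SUMO genes, with called pathway genes; others were added for their role or after their values were seen. Some genes are not reported here. IP and input libraries that share a replicate number in the labels departed alike from the means of their groups (correlations of 0.294, 0.305 and 0.301), which was taken as pairing. The main limma fit leaves this pairing out, and the replicate block takes it in. With the block 10.5% of all genes were called, against 6.32% in the main fit. No libraries of a group agreed within sampling noise. Python 3.11.15 with pandas 2.3.3, scipy 1.17.1 and matplotlib 3.10.9 was used.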

Additional observations from a re-analysis of the deposited data

How the results depend on the processing

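The count of higher members, 4, was 7 with the replicate block, 8 with DESeq2 and 2 with library size only, and that of lower members, 4, was 4 to 6 with the alternatives that keep all libraries. Leaving out single libraries gave 1 to 7 higher and 0 to 7 lower members. For all genes, 591 higher and 247 lower calls became 925 and 467 with the replicate block, 1061 and 571 with DESeq2, 449 lower with edgeR and the block, and 170 to 1185 higher and 10 to 547 lower when libraries were left out. The 2 lower pathway genes became 6 with the replicate block or with edgeR and the block, 7 with DESeq2, 5 with library size only and 0 to 13 without single libraries, where the higher ones numbered 4 to 23. Class medians moved: with library size only to -0.54 for E1 and E2 enzymes and -0.065 for deubiquitinases, with edgeR to 0.046 for deubiquitinases, and among members with a mean of at least 50 to -0.40 for SUMO genes, against -0.89 over all 9 tested. The median of all genes moved too, from -0.0081 in the main fit to -0.18 with library size only and -0.044 with edgeR. The deubiquitinase median was -0.0011 to 0.20 when libraries were left out. The sign turned for cul4b without IP replicate 2 (-1.03 to 0.038 over the libraries left out), for senp5 with library size only (-0.096), without IP replicate 2 and without input replicate 3 (-0.29 to 0.30), and for senp7 with library size only (-0.064) and without IP replicate 1 (-0.083 to 0.24); none of the 3 genes was called in any fit run. In the limma fit the block changed no other call of a named gene than those given above, and the cause of these shifts was not tested. Few reads limit sumo2a, sumo2b, ube2b, psme4a and psmb11, and 1 read weighs most in IP replicate 2.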
